A study of Penicillium oxalicum with 6 samples.

Results

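The genes described here are those with a detectable read level in the Ku70 strain of the filamentous fungus Penicillium oxalicum whose level was 8-fold or more higher in a strain without POX00158. They are 123 of the 9284 genes listed in at least 1 library. A gene entered when it reached 2 CPM (counts per 1000000 reads of its library) in at least 1 Ku70 library, averaged 10 CPM or more in MuPOX00158, and had a mean MuPOX00158 CPM at least 8 times its mean Ku70 CPM. Genes in 9 stretches of neighbouring identifiers were left out of the choice, and 29 genes there met the rest of the rule. A further 77 genes outside the stretches met the fold and level limits but stayed under 2 CPM in every Ku70 library, and are likewise not among the 123.

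Messenger RNA was sequenced from 3 MuPOX00158 and 3 Ku70 libraries. MuPOX00158 is labelled as the mutant of POX00158, a gene the series describes as a phosphokinase, and Ku70 is labelled as a Ku70 mutant. The labels do not state whether MuPOX00158 also carries the Ku70 mutation, whether either strain is more than 1 clone, or whether the libraries of a strain stem from separate cultures. Hyphae of both strains were shaken for 24 h at the same temperature in a liquid medium whose carbon source was 1% Avicel, a purified crystalline cellulose.

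Penicillium oxalicum lives on plant litter in soil, which it breaks down with secreted enzymes. Protein kinases of filamentous fungi carry signals from nutrients and stress to transcription factors, and so take part in which genes are read on a given carbon source. Cellulose is an insoluble carbon source that induces cellulase genes in such fungi, while many genes for other carbon sources, for development and for secondary metabolism are read at low levels there. Ku70 takes part in the repair of broken DNA by end joining, and its loss makes targeted gene replacement more efficient in many fungi. The deposited tables pair no identifier with a gene name, and none of the identifiers matched the RefSeq table of this species (ASM172317v3), which lists 9964 genes. The 123 genes are therefore described by identifier, level, effective length and neighbouring identifiers, and no function or genomic position is given to any of them. Because the genes were chosen by their mean CPM values in the 2 strains, their differences between strains are given as descriptions without a test. In mycelium as a whole, more cells that read a gene and more RNA of it per cell cannot be told apart.

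Library totals ran from 2983815 to 3259601 expected counts. POX00158 itself had 4, 8 and 9 reads in the MuPOX00158 libraries, against 1067, 569 and 763 reads in the Ku70 libraries, so that every library carried the level its label calls for. Of 7757 genes tested across the whole table, 18.6% were called higher in MuPOX00158 (edgeR quasi-likelihood test, Benjamini-Hochberg adjusted p below 0.05). Of the 123 genes, 122 passed the filter on low counts and all 122 of these were called higher. POX05987 did not pass the filter. In all 123 genes every MuPOX00158 library lay above every Ku70 library, beside 30.5% of tested genes. Both counts follow from how the genes were chosen. The median edgeR log2 fold change was 4.47 for the 122 genes and 0.00 for all tested genes.

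The 123 genes together were a minor part of the Ku70 transcriptome and a visible part of that of MuPOX00158. They took 7.77, 7.18 and 8.48% of the reads in MuPOX00158 replicates 1, 2 and 3, against 0.199, 0.252 and 0.237% in Ku70 replicates 1, 2 and 3. The means were 7.81 ± 0.649% in MuPOX00158 and 0.229 ± 0.0274% in Ku70 (SD, n = 3 each). A single gene, POX01764, held 3.25, 3.40 and 3.54% of all reads in the MuPOX00158 libraries. Without it, the other members took 4.42 ± 0.590% in MuPOX00158 and 0.142 ± 0.0199% in Ku70. In MuPOX00158, 9 of the 123 genes ranked among the 100 genes with the most reads and 35 among the top 500. In Ku70 no member was among the top 100 and 1 was among the top 500. Per length, on the FPKM scale, 5 members were among the top 100 in MuPOX00158 and 1 in Ku70.

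**Figure D1:**
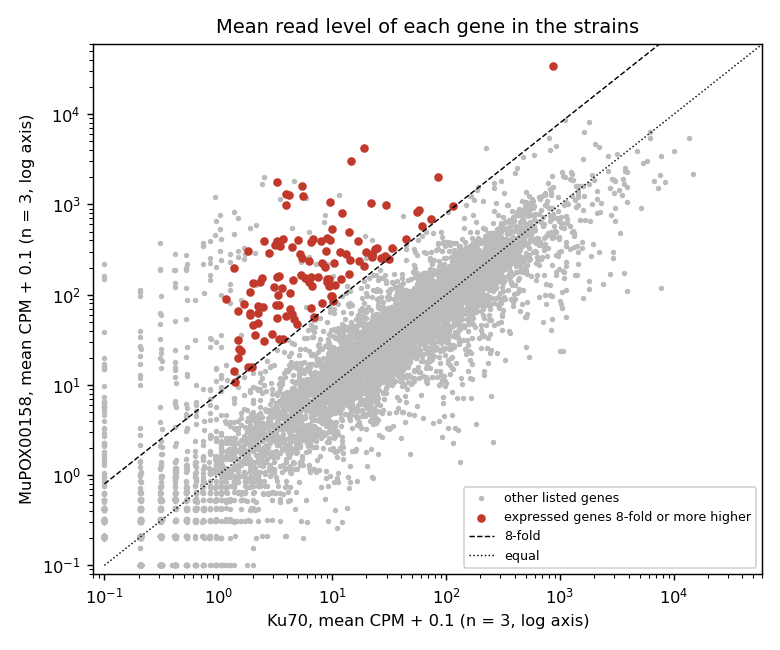
Mean CPM of every listed gene in MuPOX00158 (vertical) against Ku70 (horizontal), both on log axes with 0.1 added, means of 3 libraries each. The 123 genes (red) lie on or above the dashed 8-fold line, apart from a few of low ratio that the added 0.1 puts just under it. They run from 10.8 to 33947 CPM in MuPOX00158 and from 1.08 to 869 CPM in Ku70. Grey points above the line are genes under 2 CPM in every Ku70 library, genes under 10 CPM in MuPOX00158, or genes in the left-out identifier stretches.

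The size of the difference varied widely among the genes. The ratio of mean MuPOX00158 CPM to mean Ku70 CPM ran from 8.01 to 550, with a median of 23.7 and quartiles of 12.8 and 49.5. In 78 genes it was 16 or more, in 50 it was 32 or more, in 23 it was 64 or more, and in 17 it was 100 or more. The mean level had a median of 169.9 CPM in MuPOX00158 and 5.72 CPM in Ku70. The Ku70 level of most of the genes rested on few reads. The reads of a gene summed over the 3 Ku70 libraries ran from 10 to 8204, with a median of 54, and 19 genes had under 20 such reads. POX00760, with the lowest sum of 10 reads, has an exact 95% Poisson interval of 4.80 to 18.4 reads, which covers counting error only, and its ratio of 83.1 became 189 without Ku70 replicate 1. In 83 genes all 3 Ku70 libraries reached 2 CPM, in 18 genes 2 did, and in 22 genes a single library did.

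By read level in MuPOX00158, which is not corrected for gene length, 11 genes had 1000 CPM or more, 74 had 100 to under 1000, and 38 had under 100. The 11 most abundant took 5.25 ± 0.417% of the reads in MuPOX00158, against 0.104 ± 0.0120% in Ku70, and had a median ratio of 226. Most of both shares was POX01764, at 3.25, 3.40 and 3.54% in the MuPOX00158 libraries and 0.0793, 0.0960 and 0.0854% in the Ku70 libraries. The ratio of POX01764 was 39.1. The middle group took 2.35 ± 0.221% in MuPOX00158, against 0.112 ± 0.0171% in Ku70, with a median ratio of 25.4. The low group took 0.206 ± 0.0214% in MuPOX00158, against 0.0130 ± 0.00171% in Ku70, with a median ratio of 15.6. In Ku70 the median level was 9.44 CPM in the 11 genes, 8.82 CPM in the middle group and 2.38 CPM in the low group. Of the 11 genes, 3 averaged under 5 CPM in Ku70, 6 had 5 to under 50 CPM and 2 had 50 CPM or more. The MuPOX00158 level is part of the ratio, so the order of the median ratios is partly built into these groups. The same holds for groups by mean Ku70 level. There the median ratio was 33.0 under 5 CPM, 21.3 at 5 to under 50 CPM and 14.9 at 50 CPM or more.

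POX01764 led all genes in MuPOX00158, both in reads and in level per length. Its values were 32452, 34036 and 35354 CPM in MuPOX00158 replicates 1, 2 and 3, against 793, 960.2 and 854 CPM in Ku70 replicates 1, 2 and 3. The libraries of a strain lay close together, and the ratio of means was 39.1. On the FPKM scale it averaged 81212 ± 4435 in MuPOX00158 and 2084 ± 209 in Ku70 (SD, n = 3 each), which ranks it at 1 among all genes in MuPOX00158 and at 50 in Ku70. The effective length of POX01764, the length implied by its deposited count and FPKM, was 417 bases. Its counts were fractional in all 3 MuPOX00158 libraries and whole in the Ku70 libraries. Where counts are fractional, reads may be divided among genes, and the level is uncertain for that reason. The next highest member in Ku70, POX05482, averaged 116 CPM there.

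Among the members, POX07238 and POX01651 followed on the CPM scale, at ranks 12 and 23 of all genes in MuPOX00158. POX07238 was at 4027, 3601 and 5130.0 CPM in the MuPOX00158 libraries, against 21.2, 17.8 and 17.4 CPM in the Ku70 libraries, a ratio of 226. POX01651 was at 3548, 2272 and 3302 CPM in the MuPOX00158 libraries, against 13.1, 14.4 and 15.8 CPM in the Ku70 libraries, a ratio of 211. The strains were far apart in both genes, while MuPOX00158 replicate 2 was the lowest library of its strain in each. POX01651 is as short as POX01764, with an effective length of 402 bases, and ranked at 4 per length in MuPOX00158 with 7537 ± 1634 FPKM, against 35.9 ± 4.06 FPKM in Ku70 (SD, n = 3 each). Its counts too were fractional in the 3 MuPOX00158 libraries. These are the only members with fractional counts, beside 32 such genes among all that are listed.

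The 5 genes with the largest ratios averaged 3.19 to 5.31 CPM in Ku70, beside a member median of 5.72 CPM. In MuPOX00158 they averaged 980 to 1758 CPM, beside a member median of 169.9 CPM. POX05887 was at 1900.2, 1626 and 1747 CPM in the MuPOX00158 libraries, against 4.24, 3.12 and 2.22 CPM in the Ku70 libraries, a ratio of 550. Its 30 Ku70 reads in all allow 2.15 to 4.54 CPM by an exact 95% Poisson interval. This gene lies 7 identifiers from a left-out stretch. POX01566 was at 1182, 1025 and 1658 CPM in the MuPOX00158 libraries, against 4.57, 2.18 and 4.75 CPM in the Ku70 libraries, a ratio of 336. POX01431 was at 1325, 780.2 and 1676 CPM in the MuPOX00158 libraries, against 4.89, 4.06 and 3.17 CPM in the Ku70 libraries, a ratio of 312. The spread among the MuPOX00158 libraries was 2.15-fold for POX01431 and small beside the distance between the strains in all of these genes. POX08596 was at 1715, 1335 and 1725 CPM in the MuPOX00158 libraries, against 5.55, 4.68 and 5.70 CPM in the Ku70 libraries, a ratio of 299.7. POX02475 was at 960.2, 844 and 1137 CPM in the MuPOX00158 libraries, against 4.57, 2.81 and 4.12 CPM in the Ku70 libraries, a ratio of 256. POX01566, POX08596 and POX02475 had 36, 50 and 36 Ku70 reads in all, with exact 95% Poisson intervals of 2.68 to 5.29, 3.94 to 6.99 and 2.68 to 5.29 CPM.

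**Figure D2:**
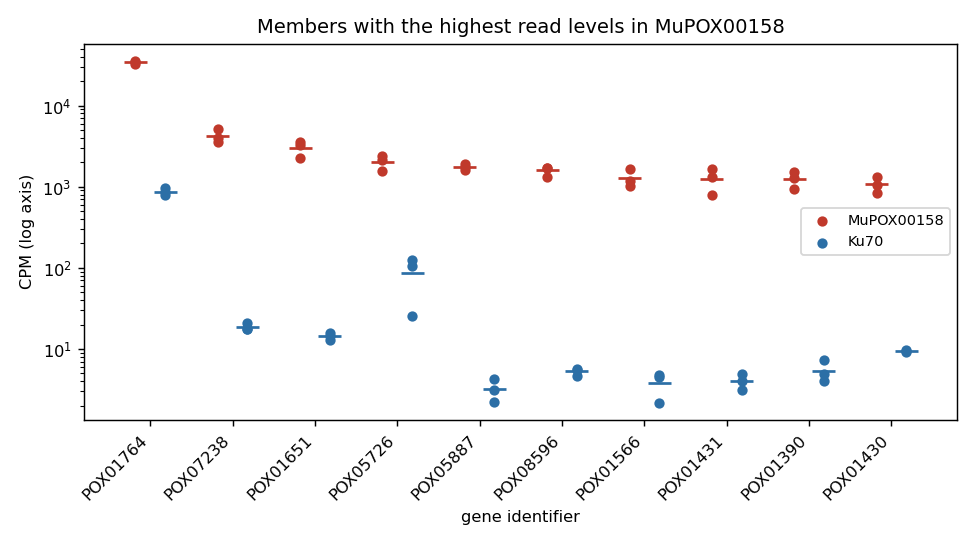
CPM (log axis) of the 10 members with the highest mean level in MuPOX00158, each point a library and each bar the mean of 3, with MuPOX00158 in red to the left of Ku70 in blue. As in all 123 members, the strains do not overlap in any of these genes, which follows from how the genes were chosen. The widest spread within a strain is that of POX05726 in Ku70, from 25.8 to 125 CPM.

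Genes with an appreciable level in Ku70 were few. An average of 50 CPM or more in Ku70 was reached by 7 genes, whose ratios ran from 8.20 to 39.1. After POX01764 these were led by POX05482, POX05726, POX03597 and POX04387. POX05482 was at 1077, 731 and 1044 CPM in the MuPOX00158 libraries, against 31.0, 232 and 85.5 CPM in the Ku70 libraries. Its Ku70 libraries thus differed by 7.47-fold, and its ratio of 8.20 became 6.00 without Ku70 replicate 1, 16.3 without Ku70 replicate 2 and 7.24 without Ku70 replicate 3. POX05726 was at 2160, 1564 and 2362 CPM in the MuPOX00158 libraries, against 25.8, 105 and 125 CPM in the Ku70 libraries, a ratio of 23.7. Here too Ku70 replicate 1 was the lowest of its strain. POX03597 was at 611, 1122 and 343 CPM in the MuPOX00158 libraries, against 57.1, 63.3 and 101 CPM in the Ku70 libraries. Its spread lay in MuPOX00158, and its ratio of 9.37 became 6.46 without MuPOX00158 replicate 2. POX04387 was even in both strains, at 552, 529 and 637 CPM in the MuPOX00158 libraries, against 65.6, 53.7 and 64.6 CPM in the Ku70 libraries, a ratio of 9.34.

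The 8-fold limit divides a continuous range of values. The members just inside it were POX03344 at 8.01, POX05482 at 8.20 and POX08830 at 8.32. The genes just outside it were POX00089 at 7.99, POX07269 at 7.88 and POX01762 at 7.85, each of which met every other part of the rule. POX00089 averaged 829 ± 531 CPM in MuPOX00158, against 104 ± 8.65 CPM in Ku70 (SD, n = 3 each), so that its place on either side is within the spread of its MuPOX00158 libraries. In all, 20 members had ratios under 10, and 41 genes that met the other limits had ratios of 6 to under 8. No gene missed the rule through the 10 CPM limit alone, for which the other limits leave little room. Under the mirror rule, with the strains exchanged, 83 genes were 8-fold or more lower in MuPOX00158.

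The choice was repeated on 4 libraries and the genes found were read in the remaining library of each strain, which the choice had then not used. With the libraries numbered 1 held out, 122 genes were chosen, and 96 of them (78.7%) were 8-fold or more higher in the held-out MuPOX00158 library than in the held-out Ku70 library. With the libraries numbered 2 held out, 96 of 119 genes (80.7%) were, and with the libraries numbered 3 held out, 100 of 116 (86.2%). The share of all tested genes past 8-fold in the same held-out libraries was 3.83, 3.65 and 3.75%. The median fold of the chosen genes in the held-out libraries was 22.5, 21.2 and 24.3, beside 21.8, 25.5 and 23.6 in the libraries that chose them. A fold of 2 or more was seen in 120 of 122, 119 of 119 and 115 of 116 genes. A Ku70 library without a read was taken as holding 3 reads, which concerned 1 gene. The genes chosen on 4 libraries were not the same set as the members, whose choice used all libraries. With the libraries numbered 1, 2 and 3 held out, 104, 112 and 107 of the chosen genes were members. The shares and folds therefore describe the genes chosen in each repeat, and not the members as a set. The rule itself was set with earlier results of these data known. With 1 library per strain held out, the shares and folds are descriptions without a test.

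Single libraries decided the place of some members. Leaving out Ku70 replicate 1 moved the ratio of 10 genes by more than 1.5 times, and Ku70 replicate 2 or 3 that of 5 genes each. Leaving out MuPOX00158 replicate 2 or 3 moved 5 and 4 genes that far, and MuPOX00158 replicate 1 none. In 105 of the 123 genes the ratio stayed at 8 or more whichever library was left out, and in all 123 it stayed at 4 or more. The lowest value was 4.31, for POX09677 without MuPOX00158 replicate 2. Applied without Ku70 replicate 1, the rule found 122 genes, of which 104 were among the 123. Of the 19 genes lost there, 7 fell under 8-fold, and the others did not reach 2 CPM in either remaining Ku70 library. Leaving out Ku70 replicate 2 or 3 lost 9 and 12 genes, and leaving out MuPOX00158 replicate 1, 2 or 3 lost 4, 5 and 6 genes.

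The spread among the libraries of a strain was wider at the median in these genes than in the tested genes as a whole. The choice partly shapes the spread in both strains. For MuPOX00158 the rule takes the mean, which 1 high library can raise past the 8-fold limit. Without MuPOX00158 replicate 2, the ratio of POX05569 went from 15.2 to 5.92 and that of POX09677 from 8.36 to 4.31. For Ku70 the rule also asks that at least 1 library reach 2 CPM, which 22 members did in a single library. In MuPOX00158 the highest library exceeded the lowest by a median of 1.54 times in the members and 1.30 times in all tested genes. A range of 3-fold or more was found in 13 of 123 members (10.6%) and in 3.16% of tested genes. Among genes with at least 20 reads in every MuPOX00158 library, 11 of 121 members (9.09%) had such a range, beside 1.31% of 6962 tested genes. In Ku70 a range of 3-fold or more was found in 34 of 123 members (27.6%) and in 7.18% of tested genes. Most members have few Ku70 reads, a median of 18 per library, and among genes with at least 20 reads in every Ku70 library the share was 5 of 45 members (11.1%), beside 3.98% of 6784 tested genes. No test was made of these differences.

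Within MuPOX00158, replicate 2 was the lowest library for 83 of the 123 genes (67.5%), beside 44.8% of tested genes. Its level was a median of 0.776 times the mean of replicates 1 and 3 in the members, and 0.958 times in tested genes. In 13 members (10.6%) it was at or under 0.5 times that mean, beside 2.29% of tested genes. The gene with the widest range was POX03095, at 45.2, 4.29 and 138 CPM in MuPOX00158 replicates 1, 2 and 3, against 1.31, 2.50 and 1.58 CPM in the Ku70 libraries. POX06513 was at 221, 24.8 and 622 CPM in the MuPOX00158 libraries, against 3.92, 0.624 and 3.48 CPM in the Ku70 libraries. POX07516 was at 290.2, 34.4 and 436 CPM in the MuPOX00158 libraries, against 2.61, 6.24 and 6.97 CPM in the Ku70 libraries. All 3 genes had replicate 2 as the low library and replicate 3 as the high one. Their ratios of 34.7, 108 and 48.1 became 13.8, 46.0 and 30.8 without MuPOX00158 replicate 3. In the opposite direction, 7 members (5.69%) were at or over 2 times the mean of replicates 1 and 3 in replicate 2, beside 2.64% of tested genes. Of these, POX05569, singled out after its values were seen, was at 23.5, 129 and 21.9 CPM in the MuPOX00158 libraries, against 4.57, 2.81 and 4.12 CPM in the Ku70 libraries, and its ratio of 15.2 became 5.92 without MuPOX00158 replicate 2.

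Within Ku70, all 3 libraries departed from the others in some genes. Replicate 1 was at or under 0.5 times the mean of replicates 2 and 3 in 19 members (15.4%), beside 7.27% of tested genes, and at or over 2 times that mean in 18 members (14.6%), beside 3.91%. Replicate 2 was at or under 0.5 times the mean of the others in 20 members (16.3%), beside 4.10% of tested genes, and at or over 2 times that mean in 6 members. Replicate 3 was that low in 10 members and that high in 9. The lowest value of replicate 1 beside the others was that of POX06951, at 324, 444 and 212 CPM in the MuPOX00158 libraries, against 1.63, 43.4 and 55.4 CPM in Ku70 replicates 1, 2 and 3. Its ratio was 9.75 with all libraries and 6.61 without Ku70 replicate 1. The reverse was seen in POX03459, at 22.5, 6.14 and 46.5 CPM in the MuPOX00158 libraries, against 3.92, 0 and 0.317 CPM in the Ku70 libraries. It had 12 reads in Ku70 replicate 1 and 1 read in the other Ku70 libraries together, and its ratio of 17.7 became 158 without that library, 11.8 without Ku70 replicate 2 and 10.1 without MuPOX00158 replicate 3. POX09116 was at 18.4, 9.82 and 13.8 CPM in the MuPOX00158 libraries, against 2.61, 1.25 and 0 CPM in the Ku70 libraries. Its ratio of 10.9 became 22.4 without Ku70 replicate 1 and 7.26 without Ku70 replicate 3. These 2 are the only members missing from a Ku70 library, which allows up to 0.936 CPM in replicate 2 for POX03459 and 0.950 CPM in replicate 3 for POX09116 (3 reads).

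**Figure D3:**
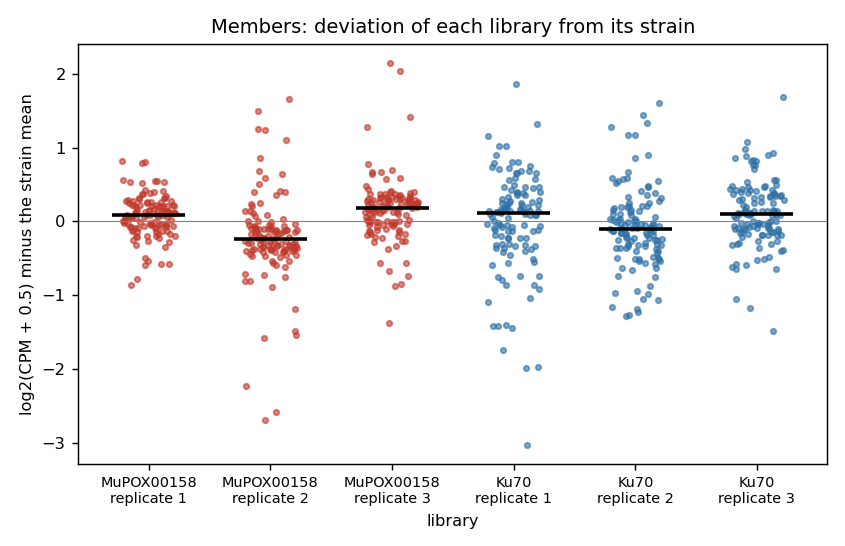
Deviation of each library from the mean of its strain in log2(CPM + 0.5), a point for each of the 123 genes, with the median as a black bar (MuPOX00158 in red, Ku70 in blue). MuPOX00158 replicate 2 is the lowest library of its strain in 83 genes, and each Ku70 library has points well away from the line on both sides.

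Members with neighbouring identifiers formed 13 groups, and 27 of the 123 genes belong to them. In this numbering, neighbouring numbers need not mean neighbouring genes, since no position is given in the files. Of these groups 12 are pairs, and POX04387, POX04388 and POX04389 form the only group of 3. POX04387 is described above. POX04388 was at 261, 204 and 252 CPM in the MuPOX00158 libraries, against 6.85, 5.93 and 5.70 CPM in the Ku70 libraries, a ratio of 38.8. POX04389 was at 380.1, 396 and 472 CPM in the MuPOX00158 libraries, against 4.57, 8.43 and 6.97 CPM in the Ku70 libraries, a ratio of 62.5. The ratio thus rose with the number in this group, while POX04387 was the longest of all members and the effective lengths of POX04388 and POX04389 were 583 and 1603 bases.

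Pairs of abundant members were POX01430 with POX01431 and POX01390 with POX01391. POX01430 was at 1056, 837 and 1333 CPM in the MuPOX00158 libraries, against 9.14, 9.67 and 9.50 CPM in the Ku70 libraries, a ratio of 114. Its partner POX01431 had the ratio of 312 given above. POX01390 was at 1273, 948 and 1521 CPM in the MuPOX00158 libraries, against 4.89, 4.06 and 7.29 CPM in the Ku70 libraries, a ratio of 230.4. POX01391 was at 1131, 733 and 1115 CPM in the MuPOX00158 libraries, against 39.8, 23.7 and 24.7 CPM in the Ku70 libraries, a ratio of 33.8. In each of these 4 genes MuPOX00158 replicate 2 was the lowest library of its strain, as it was for most members. On the FPKM scale POX01390 averaged 1075 ± 249 in MuPOX00158 and 4.67 ± 1.48 in Ku70, and POX01391 averaged 454 ± 102 in MuPOX00158 and 13.5 ± 4.10 in Ku70 (SD, n = 3 each). Per length, POX01390 was therefore the higher of the pair in MuPOX00158 and the lower in Ku70.

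In several further pairs the ratio of a gene was at least 2 times that of its partner. POX05741, all values being the mean ± SD of 3 libraries, averaged 157 ± 40.3 CPM in MuPOX00158 and 3.18 ± 0.490 CPM in Ku70, and POX05742 averaged 350.3 ± 54.1 CPM in MuPOX00158 and 3.40 ± 1.29 CPM in Ku70, with ratios of 49.5 and 103. POX02414 averaged 497 ± 129 CPM in MuPOX00158 and 13.96 ± 3.45 CPM in Ku70, and POX02415 averaged 150.1 ± 17.3 CPM in MuPOX00158 and 11.9 ± 3.40 CPM in Ku70, with ratios of 35.6 and 12.7. POX05335 averaged 389.8 ± 89.4 CPM in MuPOX00158 and 7.82 ± 2.98 CPM in Ku70, and POX05336 averaged 123 ± 52.9 CPM in MuPOX00158 and 6.60 ± 1.36 CPM in Ku70, with ratios of 49.8 and 18.7. The gene with the smaller ratio has the lower number in the first of these 3 pairs and the higher number in the others. In another pair the ratios were under 2 times apart. POX02985 averaged 834 ± 77.4 CPM in MuPOX00158 and 55.9 ± 4.08 CPM in Ku70, and POX02986 averaged 253 ± 14.2 CPM in MuPOX00158 and 26.8 ± 2.31 CPM in Ku70, with ratios of 14.9 and 9.45. Both genes of this pair varied little within a strain.

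In 4 pairs the ratios of the partners lay within 1.5 times of each other. POX01842 and POX01843 had ratios of 32.7 and 24.1, at 146 ± 18.4 and 155 ± 15.6 CPM in MuPOX00158, against 4.46 ± 0.841 and 6.44 ± 2.25 CPM in Ku70. POX02352 and POX02353 had ratios of 25.2 and 23.3, at 150.1 ± 68.2 and 77.0 ± 29.7 CPM in MuPOX00158, against 5.97 ± 1.75 and 3.31 ± 1.80 CPM in Ku70. POX04224 and POX04225 had ratios of 25.2 and 17.8, at 104 ± 12.8 and 35.8 ± 7.19 CPM in MuPOX00158, against 4.14 ± 0.269 and 2.01 ± 0.467 CPM in Ku70. The ratio of POX05482 in the fourth pair depended on the Ku70 library left out, as given above, and that of POX05483 became 18.5 without Ku70 replicate 2. POX05482 and POX05483 had ratios of 8.20 and 9.81, at 951 ± 191 and 47.3 ± 3.37 CPM in MuPOX00158, against 116 ± 104 and 4.83 ± 4.04 CPM in Ku70 (SD, n = 3 in each case).

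The pairs of lowest level were uneven among libraries. POX08829 and POX08830 averaged 54.9 ± 16.1 and 56.6 ± 13.0 CPM in MuPOX00158, against 3.16 ± 2.20 and 6.80 ± 0.745 CPM in Ku70, with ratios of 17.4 and 8.32, of which the first became 26.8 without Ku70 replicate 3. POX09676 was at 20.1, 63.2 and 8.19 CPM in the MuPOX00158 libraries, against 0.979, 3.43 and 2.85 CPM in the Ku70 libraries. POX09677 was at 8.38, 31.0 and 7.86 CPM in the MuPOX00158 libraries, against 0.653, 4.68 and 0.317 CPM in the Ku70 libraries. Both genes were highest in replicate 2 of either strain, and without MuPOX00158 replicate 2 their ratios of 12.6 and 8.36 became 5.84 and 4.31. Without Ku70 replicate 2, the ratio of POX09677 was 32.5. POX05482 and POX05483 likewise shared a pattern within Ku70, with replicate 1 the lowest and replicate 2 the highest in both.

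Across all 14 pairs of consecutive member identifiers, both genes had the same lowest MuPOX00158 library in 7 pairs and the same lowest Ku70 library in 6 pairs. Over 6427 pairs of consecutive tested identifiers the shares were 38.3% for MuPOX00158 and 42.3% for Ku70. No test was made over the 14 pairs.

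Most tested non-members with identifiers next to a member were not called higher. The 27 members that adjoin another member are left out of the counts below. Of 163 tested non-members numbered directly before or after a member, 42 (25.8%) were called higher in MuPOX00158, beside 18.6% of all tested genes, and 31 (19.0%) were called lower, beside 18.6% (edgeR quasi-likelihood test, adjusted p below 0.05). Their median log2 fold change was 0.07. At 6 to 10 numbers away, 145 of 794 genes (18.3%) were called higher. The identifiers directly after a member were called higher in 27 of 83 cases (32.5%), and those directly before in 16 of 82 (19.5%). No test was made of these neighbour counts. Genes numbered between members fell on either side of the test. Between POX07268 and POX07270, POX07269 averaged 95.9 ± 77.2 CPM in MuPOX00158, against 12.2 ± 12.2 CPM in Ku70 (SD, n = 3 each), with the ratio of 7.88 given above, and was called higher (edgeR log2 fold change 2.91, SE 0.92, adjusted p = 0.0399), a call that was lost without MuPOX00158 replicate 1 or 3 or Ku70 replicate 2 or 3 (adjusted p = 0.0967, 0.122, 0.115 and 0.126) and in limma on log2(FPKM + 1) or log2(FPKM + 0.1) (adjusted p = 0.0613 and 0.0658). Between POX02473 and POX02475, POX02474 averaged 18.1 ± 0.950 CPM in MuPOX00158 and 11.96 ± 2.17 CPM in Ku70 and did not pass the test (edgeR log2 fold change 0.51, SE 0.23, adjusted p = 0.122).

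**Figure D4:**
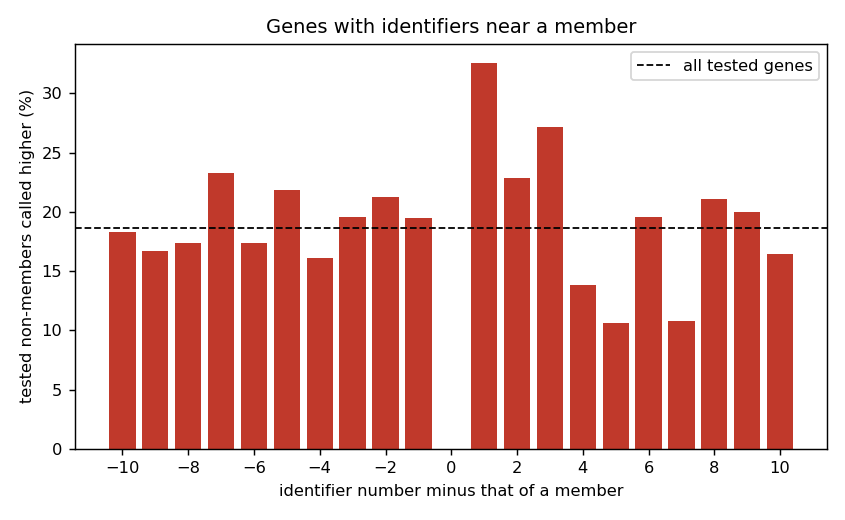
Share of tested non-members called higher in MuPOX00158 (vertical, %) by the difference between their identifier number and that of a member (horizontal), with the dashed line at the 18.6% of all tested genes. Each bar rests on 82 to 103 genes. The bar directly after a member is the highest, at 32.5%, and bars 6 to 10 numbers away lie on both sides of the line.

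The members were otherwise scattered over the identifiers, from POX00076 to POX09677. Every block of 1000 numbers held 7 to 17 of them. Only 4 lie within 10 numbers of a left-out stretch: POX03426, POX08766, POX09482 and POX05887, at 1, 1, 2 and 7 numbers from it. Their ratios were 14.04, 33.9, 70.5 and 550. They were kept, since they met the rule as written.

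The effective lengths of the members were near those of tested genes as a whole. The CPM limits of the rule are not corrected for length, so the choice may shape the lengths too, which was not tested. The median was 1232 bases in the members, with quartiles of 922 and 1635, and 1262 bases in all tested genes, with quartiles of 794 and 1880. Below the lower quartile of tested genes lay 26 members (21.1%), and above the upper quartile lay 21 (17.1%). The median was 1087 bases in the 77 genes that stayed under 2 CPM in every Ku70 library and 1257 bases in 540 expressed genes that were 2- to 8-fold higher. The longest members were POX04387, then POX01430 at 6387 bases and POX04826 at 4365, and the shortest were POX04103 at 231, POX04589 at 318 and POX07419 at 336. Length changes the order of levels. POX01430, at rank 112 by CPM in MuPOX00158, was at rank 979 per length with 168 ± 38.9 FPKM, while POX07419, at rank 640 by CPM, was at rank 205 per length with 834 ± 308 FPKM in MuPOX00158 (SD, n = 3 each), against 15.1 ± 2.53 FPKM in Ku70.

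**Figure D5:**
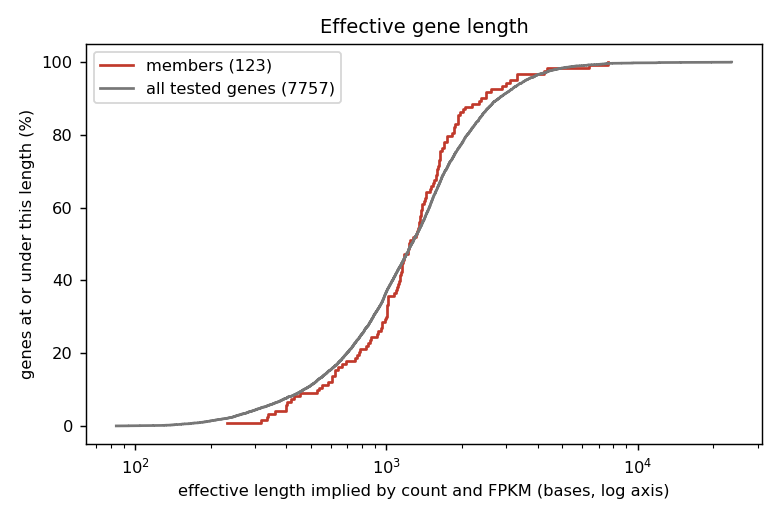
Percentage of genes at or under each effective length (log axis, in bases) for the 123 members (red) and the 7757 tested genes (grey). The curves cross near their medians of 1232 and 1262 bases, and the member curve is steeper, with smaller shares of very short and very long genes.

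Members at the ends of the length range differed in ratio. POX04589 was at 133, 114 and 122 CPM in the MuPOX00158 libraries, against 4.24, 2.81 and 1.90 CPM in the Ku70 libraries, a ratio of 41.1. POX04826 was at 54.0, 69.3 and 75.3 CPM in the MuPOX00158 libraries, against 0.653, 0.936 and 2.53 CPM in the Ku70 libraries, a ratio of 48.2 that was 83.3 without Ku70 replicate 3. POX04103 was at 17.1, 13.8 and 15.7 CPM in the MuPOX00158 libraries, against 2.94, 1.25 and 0.950 CPM in the Ku70 libraries, a ratio of 9.08 that was 14.1 without Ku70 replicate 1. The strains did not overlap in these 3 genes, as in all 123 members, beside 30.5% of tested genes, which follows from the choice. POX04826 and POX04103 rested on 13 and 16 Ku70 reads in all.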

How the data were processed

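The authors deposited 1 table per library with an expected count (estimated reads per gene) and an FPKM value (scaled by length and library size), per the file headers. The submitters' processing notes name BWA 0.7.10-r789, RSEM 1.2.12, DESeq2 and Bowtie2 2.1.0 but not their roles. The build, annotation and strandedness were not given in the sources used here. Genes not listed in a library were taken as 0. CPM is the expected count over the library total, without length correction, so strain ratios follow the totals. Effective length was derived from count and FPKM. Counts were called whole within 1e-06.

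Counts were rounded and fitted with edgeR 4.0.16 in R 4.3.3 (filterByExpr, minimum count 10, minimum total 15; TMM; quasi-likelihood test), 3 MuPOX00158 against 3 Ku70 libraries; p-values reflect only how these libraries vary, which may be technical. Alternatives were limma 3.58.1 on log2(FPKM + 1) and log2(FPKM + 0.1), DESeq2 1.42.0, plain library sizes, no filter on low counts, an adjusted p below 0.01, the replicate block and leaving out each library, and, for the choice of genes, other limits. The edgeR fit with and without the replicate block, limma with 1 added to CPM values, DESeq2 and the rule as given were checked on simulated data. The other settings were not. Groups came from the strain label, and replicate numbers follow the order of deposition. Letters in the titles are shared between the strains and may pair the libraries, which was not tested. Deviations from strain means of same-lettered libraries correlated at 0.15, 0.219 and 0.159 over tested genes. Those of differently lettered libraries correlated at -0.177 to 0.0336. Deviations within a strain cancel for each gene, so these correlations are not independent of the same-lettered ones. The main fit did not use the letters, and the replicate block did. Intervals and floors of 3 reads cover counting error only.

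The genes, lists and tests were chosen with earlier results of these data known. Genes named were those of highest level, largest and smallest ratio, extreme length or spread, with fractional counts, just outside the limit, or with neighbouring identifiers; POX05569, POX00760, POX05987 and the genes beside or between stretches were added after their values were seen.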

Additional observations from a re-analysis of the deposited data

How the results depend on the processing

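The rule found 123 genes. With TMM-scaled totals it found 122 (119 shared), with FPKM ratios 123 (all shared), with medians in place of means 127 (115 shared), and with the stretches widened by 10 identifiers, a setting added after seeing the data, 119. Its own limits moved it most: 227 genes at 4-fold, 78 at 16-fold and 77 with a Ku70 floor of 5 CPM, all by construction. Leaving out 1 library gave 119 to 132 genes. Of the 123, edgeR called 122 higher, beside 18.6% of all tested genes. This count and those under the alternatives follow from how the genes were chosen. The share of all tested genes was taken for the main fit only. Plain library sizes and limma on log2(FPKM + 1) or log2(FPKM + 0.1) gave 122 each, DESeq2 and no filter on low counts 123 each, an adjusted p below 0.01 gave 116, the replicate block 122, and leaving out 1 library 120 to 122. The members' share of reads became 4.42% in MuPOX00158 and 0.142% in Ku70 without POX01764. The number of members with a 3-fold range in Ku70 was 5 in place of 34 with a minimum of 20 reads in every library, which left 45 genes. For the 51 named genes, 598 of 612 comparisons with alternatives kept their side of the threshold, 14 lost a call and none reversed; the losses were those of POX03459, POX06951, POX07269 and POX09677, of which 12 came from leaving out 1 library and 2, both of POX07269, from limma. The block changed no call. Members with few Ku70 reads have loosely fixed ratios, and genes without a name can be described by level only.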
